A study of Mus musculus with 6 samples.

Results

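The genes described are the VEGF ligands, their receptor tyrosine kinases and the neuropilins of the mouse, measured in tissue repairing an injured bone. The 10 genes were taken by symbol: the ligand genes Vegfa, Vegfb, Vegfc, Figf and Pgf, the receptor genes Kdr, Flt1 and Flt4, and the co-receptor genes Nrp1 and Nrp2. All 10 were found among the 23351 genes of the deposited table, and all 10 were among the 13408 genes that entered the test, those averaging 0.5 FPKM or more.

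VEGF ligands are secreted growth factors that bind tyrosine kinase receptors, found chiefly on endothelial cells, and drive the sprouting, survival and permeability of vessels. VEGF-A signals mainly through VEGFR2, the product of Kdr, while VEGFR1, the product of Flt1, binds VEGF-A, VEGF-B and placental growth factor and acts largely as a trap for VEGF-A. VEGF-C and VEGF-D, the product of Figf, act on VEGFR3, the product of Flt4, in lymphatic vessels. Neuropilins lack a kinase, bind VEGF forms and class 3 semaphorins, and are carried by endothelial cells, nerve cells and some myeloid cells. In muscle and in healing bone, VEGF-A is a known driver of new vessels.

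The tissue came from C57BL/6 mice and joined periosteum, the sheath of the bone, with adjoining quadriceps muscle from the site of injury. There were 3 Empty-lip and 3 Clod-lip libraries from liposome-injected mice, and the labels give no age, sex or time after injury. The groups are read here as empty liposomes and clodronate liposomes, which deplete phagocytic cells throughout an animal, and the series title names a search for macrophage-derived factors in angiogenesis and wound healing. Nothing in the labels says that libraries came from separate animals, and the p-values therefore cover only the variation among these samples, part or all of which may be technical.

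Values are FPKM, fragments mapped to a gene corrected for the length of its transcripts and for library size, so levels of different genes can be set side by side. Read counts were not used here, and the steps between low FPKM values put the depth of the other libraries at 0.992 to 1.13 times that of Empty-lip 1, if no further scaling was applied. Muscle fibre markers were present in every library and rose in Clod-lip, 18 of 19 of them, where 2.84% of all tested genes did. Their summed FPKM was 13298 to 18516 in Empty-lip and 29596 to 32199 in Clod-lip. All 19 were higher without overlap, where 14.0% of all tested genes were. However, without Empty-lip 2, Clod-lip 1 or Clod-lip 3 none of the 19 passed, and without Empty-lip 3 there were 11. Of 20 macrophage markers 6 fell, where 1.21% of all tested genes did, and 14 did not pass. Their summed FPKM was 8342 to 8866 in Empty-lip and 4711 to 8019 in Clod-lip. The macrophage count was 16 without Clod-lip 2, 2 without Empty-lip 1 and 0 without any one of the other 4 libraries. It was 2 with no filter or no trend. Of 13 neutrophil markers 5 rose (Camp, Ngp, Ltf, Elane and Prtn3), where 2.84% of all tested genes did, and 7 overlapped between the groups. The log2 change was positive in 10 of the 13 and negative in 3, Csf3r (-0.27), Mmp9 (-0.07) and Cxcr2 (-0.0005). The sums were 589 to 1630 FPKM in Empty-lip and 992 to 4024 FPKM in Clod-lip. Most of each sum was S100a8 and S100a9, which overlapped and did not pass. Without Clod-lip 3 no neutrophil marker passed, without Empty-lip 2 or Clod-lip 1 there were 2, and without Empty-lip 3 there were 3. No gene of these marker lists was at 0 in any library. Markers of periosteum were not among the lists. MicroRNA and small nucleolar RNA genes took 39.1% to 47.7% of all FPKM in Empty-lip. In Clod-lip 1, 2 and 3 they took 32.7%, 0.189% and 0.0968%.

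The 250 bases before the annotated start of 4 of the genes are shown, because Vegfa and Flt4 were the only members called different in the authors' deposited table and Nrp1 and Nrp2 were the only members lower in Clod-lip. They are RefSeq sequence of build GRCm38.p6, written 5′ to 3′ on the strand of the gene. Capitals mark the GC box, GGGCGG, on either strand. The windows are chr17:46032378-46032627 on the minus strand for Vegfa, and on the plus strand chr11:49609429-49609678 for Flt4, chr8:128358823-128359072 for Nrp1 and chr1:62703067-62703316 for Nrp2.
Vegfa: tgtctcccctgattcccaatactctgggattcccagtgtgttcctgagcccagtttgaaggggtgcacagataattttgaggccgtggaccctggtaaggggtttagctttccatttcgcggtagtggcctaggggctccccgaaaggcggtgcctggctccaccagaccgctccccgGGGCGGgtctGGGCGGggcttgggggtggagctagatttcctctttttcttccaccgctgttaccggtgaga
Flt4: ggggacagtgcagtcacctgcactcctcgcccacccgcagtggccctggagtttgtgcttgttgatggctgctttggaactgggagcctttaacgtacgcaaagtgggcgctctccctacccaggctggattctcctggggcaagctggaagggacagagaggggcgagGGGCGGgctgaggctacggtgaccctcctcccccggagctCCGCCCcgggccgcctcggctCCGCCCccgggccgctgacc
Nrp1: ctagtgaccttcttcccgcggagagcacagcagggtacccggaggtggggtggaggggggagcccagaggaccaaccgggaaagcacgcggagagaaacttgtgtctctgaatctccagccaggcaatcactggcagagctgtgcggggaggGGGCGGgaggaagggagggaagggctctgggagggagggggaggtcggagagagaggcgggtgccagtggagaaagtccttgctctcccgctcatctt
Nrp2: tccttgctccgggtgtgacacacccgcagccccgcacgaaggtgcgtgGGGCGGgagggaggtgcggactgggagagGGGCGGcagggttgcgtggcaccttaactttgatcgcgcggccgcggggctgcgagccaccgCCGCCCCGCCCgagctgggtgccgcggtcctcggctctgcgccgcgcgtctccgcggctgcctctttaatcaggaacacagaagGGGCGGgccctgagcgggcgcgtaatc

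The GC box, to which SP1-type factors are known to bind, was found 2 times before Vegfa, its first bases lying 72 and 62 bases before the start. It was found 3 times before Flt4, once before Nrp1 and 5 times before Nrp2, where a pair of copies overlapped. Over all members, 9 of 10 windows held it and the window of Figf did not, against 32.7% of the 32851 windows of this length in the table. The GC content of the windows was 59.2% for Vegfa, 68.4% for Flt4, 64.4% for Nrp1 and 72.4% for Nrp2, against a median of 52.4%. The letters ACGTG, a core of the hypoxia response element, were in no member's window and in 16.6% of all windows, both strands searched. The alternative core GCGTG was in 6 members' windows and in 28.2% of all. CCAAT was in 1 member's window, that of Vegfa, against 33.8%, and TATAAA in those of Figf and Flt1, against 12.4%. GGAA, the core bound by ETS factors, was in 9 members' windows and in 93.4% of all. A match describes these letters only, and elements farther from the start lie outside the windows.

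All 10 genes were expressed in both groups, at levels from 2.71 to 64.1 FPKM. Nrp1 stood highest, above 87.9% of the tested genes by its mean, and Vegfc lowest, above 23.8% of them. The neuropilins summed to 90.7 ± 4.78 FPKM in Empty-lip (SD, n = 3), the ligands to 68.2 ± 4.60 FPKM and the receptors to 26.1 ± 1.76 FPKM. In Clod-lip the neuropilins summed to 75.7 ± 4.18 FPKM, the ligands to 86.5 ± 9.33 FPKM and the receptors to 32.0 ± 1.28 FPKM. The ligands together thus stood below the neuropilins in Empty-lip and, by their means, above them in Clod-lip, although both sums overlap in Clod-lip, at 77.4 to 96.1 FPKM for ligands and 72.4 to 80.4 FPKM for neuropilins.

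In Empty-lip the order of the means was Nrp1, Nrp2, Vegfb, Pgf, Vegfa, Kdr, Figf, Flt1, Flt4 and Vegfc. Among the neighbours in that order, the libraries of Nrp2 and Vegfb, of Pgf and Vegfa, of Figf and Flt1, and of Flt4 and Vegfc overlapped. In Clod-lip the order was Nrp1, Vegfb, Vegfa, Nrp2, Pgf, Kdr, Figf, Flt1, Flt4 and Vegfc. There the libraries of Nrp1 and Vegfb and those of Vegfb and Vegfa did not overlap, nor did those of Kdr and Figf or of Flt1 and Flt4, while all other neighbours overlapped. Vegfa and Nrp2 both averaged 23.9 FPKM in Clod-lip, whereas in Empty-lip Nrp2 averaged 29.1 FPKM and Vegfa 16.2 FPKM.

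**Figure D1:**
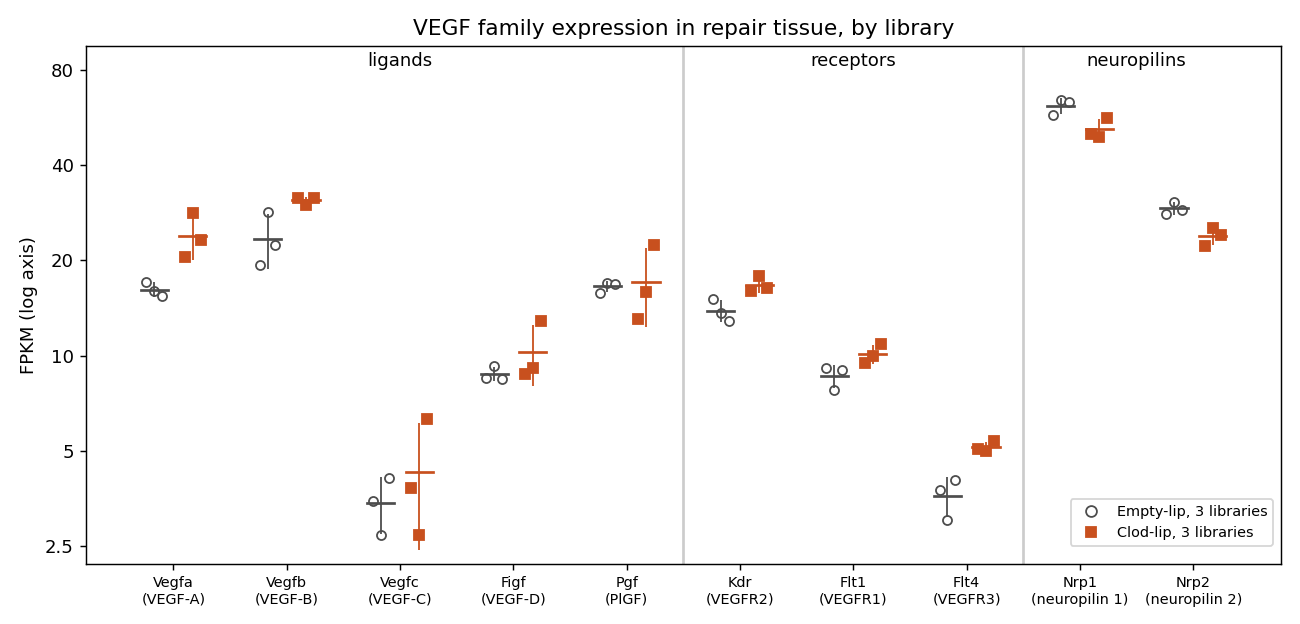
Level of each VEGF ligand, receptor and neuropilin gene in FPKM (log axis) in the 3 Empty-lip libraries (open circles) and the 3 Clod-lip libraries (filled squares); horizontal lines are means and vertical lines 1 SD. The Clod-lip points lie above all Empty-lip points for Vegfa, Vegfb, Kdr, Flt1 and Flt4 and below them for Nrp1 and Nrp2, and the groups overlap for Vegfc, Figf and Pgf.

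Between the groups, no member passed the test: 0 of 10 had an adjusted p of 0.05 or less by limma, where 4.05% of all tested genes did, 2.84% higher and 1.21% lower. At an unadjusted p under 0.05 there were 6 of 10 members (Vegfa, Vegfb, Kdr, Flt4, Nrp1 and Nrp2), where 21.8% of all tested genes were. The libraries of the groups did not overlap for 7 of 10 members, against 27.4% of all tested genes. Of these, 5 were higher in Clod-lip, where 14.0% of all tested genes were, and 2 lower, where 13.4% were. The median log2 change over the members was 0.21, against -0.01 over all tested genes. In the authors' deposited table, 2 of the 10 members were called, both higher in Clod-lip, where 12.2% of the genes they tested were called, 6.82% higher and 5.41% lower. The q-values of the other 8 members in the authors' deposited table ran from 0.126 to 0.941.

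Vegfa encodes the main angiogenic ligand and lies at chr17:46016993-46032377 (mm10). It was measured at 17.1, 15.9 and 15.4 FPKM in Empty-lip 1, 2 and 3 and at 20.4, 28.2 and 23.2 FPKM in Clod-lip 1, 2 and 3. Every Clod-lip library was above every Empty-lip library, Clod-lip 2 most, and the Clod-lip libraries were spread more widely. The means were 16.2 ± 0.878 and 23.9 ± 3.96 FPKM (SD, n = 3 each), a ratio of 1.48. The log2 change was 0.53 with SE 0.124 and a 95% interval of 0.24 to 0.82, and the limma adjusted p of 0.0599 missed the threshold. The q-value in the authors' deposited table was 0.00443, a call. In this bulk tissue, a different number of expressing cells and a different amount of RNA per cell cannot be told apart, here or for any other member.

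Other measures moved with Vegfa. Muscle sums were higher in every Clod-lip library than in every Empty-lip library, as Vegfa was, and within Empty-lip Vegfa followed the order of the muscle sums, 18516, 15619 and 13298 FPKM in Empty-lip 1, 2 and 3. Among the Clod-lip libraries Vegfa was highest in Clod-lip 2, which had the lowest muscle sum of the 3, at 29596 FPKM. That library had the highest neutrophil sum, at 4024 FPKM, most of it S100a8 and S100a9, which did not pass. The part of muscle fibres, neutrophils or macrophages in the Vegfa difference was not tested. Without Clod-lip 2 the log2 change of Vegfa was 0.41 and it passed, with a limma adjusted p of 0.0484; over 15 settings its adjusted p ran from 0.0484 to 0.182 and it passed in 4.

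Vegfb encodes a ligand of VEGFR1, lies at chr19:6982472-6987651, and was the most abundant ligand in both groups. It was measured at 19.4, 28.4 and 22.4 FPKM in Empty-lip, and at 31.4, 30.0 and 31.4 in the Clod-lip libraries. The Clod-lip libraries were close to each other and all higher, with Empty-lip 2 close beneath them. The log2 change was 0.41 with SE 0.133 (95% interval 0.10 to 0.72), and it did not pass (limma adjusted p = 0.133).

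Pgf encodes placental growth factor, a ligand of VEGFR1, and lies at chr12:85166639-85177313. It was measured at 15.7, 17.01 and 16.9 FPKM in Empty-lip, and at 13.1, 15.8 and 22.3 in the Clod-lip libraries. The Empty-lip libraries lay close together, and the Clod-lip libraries lay on both sides of them, Clod-lip 3 highest. The log2 change of 0.01 had a 95% interval of -0.39 to 0.42 (limma adjusted p = 0.981), and leaving out Clod-lip 3 gave -0.19, Clod-lip 1 0.18.

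The lymphatic ligands overlapped between the groups as well. Vegfc, at chr8:54077532-54186454, was measured at 3.47, 2.71 and 4.11 FPKM in Empty-lip, and at 3.82, 2.72 and 6.31 in the Clod-lip libraries. Clod-lip 3 stood alone above the rest, and the other Clod-lip libraries lay within the Empty-lip range. The log2 change was 0.21 with a 95% interval of -0.38 to 0.80 (limma adjusted p = 0.696), and it was -0.05 without Clod-lip 3.
Figf, at chrX:164373548-164402647, was measured at 8.52, 9.24 and 8.43 FPKM in Empty-lip, and at 8.75, 9.15 and 12.8 in the Clod-lip libraries. Here too Clod-lip 3 was the single high library, and the other Clod-lip libraries lay within the Empty-lip range. The log2 change was 0.19 with a 95% interval of -0.15 to 0.54 (limma adjusted p = 0.511), and it was 0.03 without Clod-lip 3. Clod-lip 3 was thus the highest library for Vegfc, Figf and Pgf. It also had the lowest macrophage sum, at 4711 FPKM, and the highest muscle sum, at 32199 FPKM. Its sums for blood endothelial markers and for pericyte and smooth muscle markers, 595 and 505 FPKM, were the highest too. The part of any of these in the ligand values was not tested.

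The makeup of the ligand pool is given as shares of the summed ligand FPKM. Vegfa made up 23.8% ± 2.56 in Empty-lip and 27.8% ± 4.53 in Clod-lip, and Pgf 24.3% ± 0.964 and 19.5% ± 3.30. Vegfb made up 34.1% and 36.0%, Figf 12.8% and 11.8%, and Vegfc 5.08% and 4.89%. The ratio of Vegfa to Pgf was 1.09, 0.937 and 0.913 in Empty-lip and 1.56, 1.78 and 1.04 in Clod-lip, and Clod-lip 3 lay within the Empty-lip range (exact two-sided permutation p = 0.2, Benjamini-Hochberg adjusted p = 0.8 over the 7 ratios computed). The design allows no exact p under 0.1.

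The receptor genes, which mark endothelial cells, were higher in all 3 Clod-lip libraries than in all 3 Empty-lip libraries. Of all tested genes 14.0% were higher in this way. None of the receptor genes passed the test. Flt4 encodes VEGFR3, the receptor of VEGF-C and VEGF-D, and lies at chr11:49609679-49652739. It was measured at 3.76, 3.03 and 4.05 FPKM in Empty-lip, and at 5.06, 5.00 and 5.36 in the Clod-lip libraries. The Clod-lip libraries lay within a narrow range above all Empty-lip libraries. The means were 3.61 ± 0.527 and 5.14 ± 0.189 FPKM, a ratio of 1.42, and the log2 change was 0.42 with SE 0.130 (95% interval 0.12 to 0.72; limma adjusted p = 0.117). In the authors' deposited table Flt4 was called, with a q-value of 0.0477.

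Kdr encodes VEGFR2, the main signalling receptor for VEGF-A, and lies at chr5:75933270-75978428. The Kdr level was 15.1, 13.6 and 12.8 FPKM in Empty-lip, and 16.0, 17.9 and 16.4 in the Clod-lip libraries. The groups did not overlap, with Empty-lip 1 and Clod-lip 1 nearest to each other. The log2 change was 0.26 with SE 0.0974 (95% interval 0.03 to 0.48; limma adjusted p = 0.182). The 6 libraries ranked in the same order by Kdr as by Vegfa, from Empty-lip 3 at the bottom to Clod-lip 2 at the top, a description over libraries that share the treatment.

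Flt1 encodes VEGFR1 and lies at chr5:147562196-147725988. The Flt1 level was 9.11, 7.78 and 8.995 FPKM in Empty-lip, and 9.49, 9.99 and 10.9 in the Clod-lip libraries. Clod-lip was higher by a small margin, with Empty-lip 2 the lowest library. The log2 change was 0.21 with a 95% interval of -0.04 to 0.46 (limma adjusted p = 0.310).

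Kdr and Flt1 were also set against each other and against Cdh5, the VE-cadherin gene of vascular endothelium. The ratio of Kdr to Flt1 was 1.61 ± 0.168 in Empty-lip and 1.66 ± 0.143 in Clod-lip (exact permutation p = 0.6, adjusted p = 0.8). The ratio of Kdr to Cdh5 was 0.213 ± 0.00915 and 0.229 ± 0.0259, and that of Flt1 to Cdh5 was 0.133 ± 0.00850 and 0.138 ± 0.00431 (exact permutation p = 0.4 for each, adjusted p = 0.8). All 3 ratios overlapped between the groups. Of the 15 blood endothelial markers, 0 passed, where 4.05% of all tested genes did. Without Empty-lip 1, or with the filter at 5 FPKM, 1 passed as higher. Without Clod-lip 2, alone or together with Empty-lip 1, 2 did. With all libraries, 3 of the 15 were higher without overlap, where 14.0% of all tested genes were. A positive log2 change was seen in 14, and the list's median was 0.22. Their FPKM summed to 440 to 534 in Empty-lip and 546 to 595 in Clod-lip. Kdr at 0.26 and Flt1 at 0.21 lay close to that median, and Flt4 at 0.42 lay above it. Whether the number of endothelial cells differed was not tested.

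Of 7 lymphatic markers tested, 1 fell, where 1.21% of all tested genes did, and 6 did not pass. The median log2 change was -0.04, and the FPKM of the 7 markers summed to 126 to 155 in Empty-lip and 84.9 to 104 in Clod-lip. Pdpn, which encodes podoplanin and is also carried by fibroblasts and some macrophages, fell from 105 ± 10.4 to 68.3 ± 12.1 FPKM, a log2 change of -0.63 (limma adjusted p = 0.0480), and made up most of that sum; it lost its call without any one library other than Clod-lip 2, with no filter (adjusted p = 0.0687) and with no trend (0.0813). The list went both ways. Mmrn1 (log2 0.32) and Reln (log2 0.39) were higher without overlap, where 14.0% of all tested genes were, with limma adjusted p of 0.307 and 0.218. Lyve1 (log2 -0.52) and Itga9 (log2 -0.29) were lower without overlap, as was Pdpn, where 13.4% of all tested genes were. Their limma adjusted p was 0.202 for Lyve1 and 0.134 for Itga9. Which cells carried the genes of this list cannot be told from bulk tissue. Prox1, a lymphatic transcription factor, was at 0.923 ± 0.361 and 1.29 ± 0.684 FPKM. The ratio of Flt4 to Prox1 was 4.54, 4.89 and 3.07 in Empty-lip and 3.09, 10.02 and 3.10 in Clod-lip, set by Clod-lip 2, where Prox1 was at 0.4995 FPKM (exact permutation p = 0.8, adjusted p = 0.8). Flt4 is carried by some blood capillaries as well as by lymphatic vessels.

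The neuropilin genes were the only members lower in Clod-lip. Nrp1, a co-receptor for VEGF-A and for semaphorin 3A, lies at chr8:128359073-128505475. Its level was 57.5, 64.1 and 63.1 FPKM in Empty-lip, and 50.2, 48.9 and 56.3 in the Clod-lip libraries. The groups did not overlap, though Empty-lip 1 and Clod-lip 3 lay close together, and they overlapped after quantile normalization or scaling to the total without small RNA genes. The means were 61.6 ± 3.58 and 51.8 ± 3.96 FPKM, a ratio of 0.841, and the log2 change was -0.25 with SE 0.0862 (95% interval -0.45 to -0.05; limma adjusted p = 0.153).

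Nrp2, a co-receptor for VEGF-C and for semaphorin 3F, lies at chr1:62703317-62818692. Its levels were 27.9, 30.6 and 28.9 FPKM in Empty-lip, and 22.2, 25.3 and 24.1 in the Clod-lip libraries. All Clod-lip libraries were lower, Clod-lip 1 most. The means were 29.1 ± 1.35 and 23.9 ± 1.56 FPKM, a ratio of 0.820, and the log2 change was -0.28 with SE 0.0851 (95% interval -0.48 to -0.08; limma adjusted p = 0.114). The ratio of Nrp1 to Nrp2 was 2.11 ± 0.0660 in Empty-lip and 2.18 ± 0.216 in Clod-lip (exact permutation p = 0.7, adjusted p = 0.8). The macrophage markers, whose median log2 change was -0.56, moved in the same direction as the neuropilins, and their part in the neuropilin values was not tested. Within Clod-lip, the library with the highest macrophage sum, Clod-lip 2 at 8019 FPKM, had the lowest Nrp1 and the highest Nrp2.

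**Figure D2:**
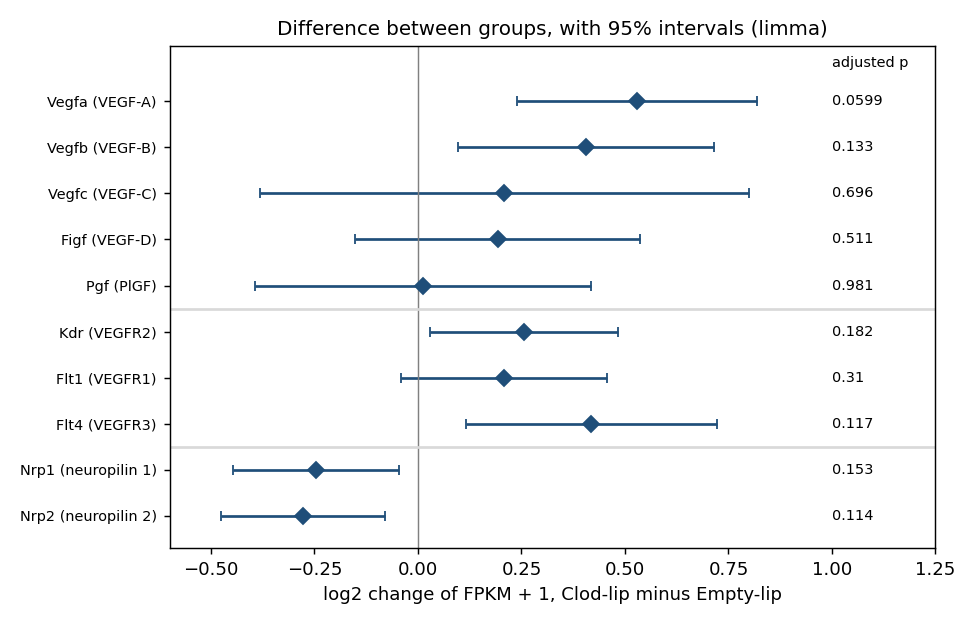
Log2 change of FPKM + 1, Clod-lip minus Empty-lip, for each member (diamonds) with its 95% interval from limma and, at the right, its p adjusted over all 13408 tested genes. Intervals lie above 0 for Vegfa, Vegfb, Kdr and Flt4, below 0 for Nrp1 and Nrp2, and cross 0 for the other 4, and the smallest adjusted p is 0.0599.

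The opposite directions of receptors and neuropilins can be read as a ratio in each library, chosen after the values were seen and given with no test. The summed neuropilins were 3.06, 3.87 and 3.55 times the summed receptors in Empty-lip and 2.37, 2.26 and 2.47 times in Clod-lip. Nrp1 was 3.81, 4.70 and 4.92 times Kdr in Empty-lip and 3.14, 2.74 and 3.44 times in Clod-lip, and Nrp2 was 7.44, 10.1 and 7.12 times Flt4 in Empty-lip and 4.39, 5.07 and 4.50 times in Clod-lip. Since the receptors were higher and the neuropilins lower in every Clod-lip library, these 3 ratios could not overlap between the groups. The summed ligands were 2.30, 3.00 and 2.60 times the summed receptors in Empty-lip and 2.54, 2.61 and 2.95 times in Clod-lip, with overlap.

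**Figure D3:**
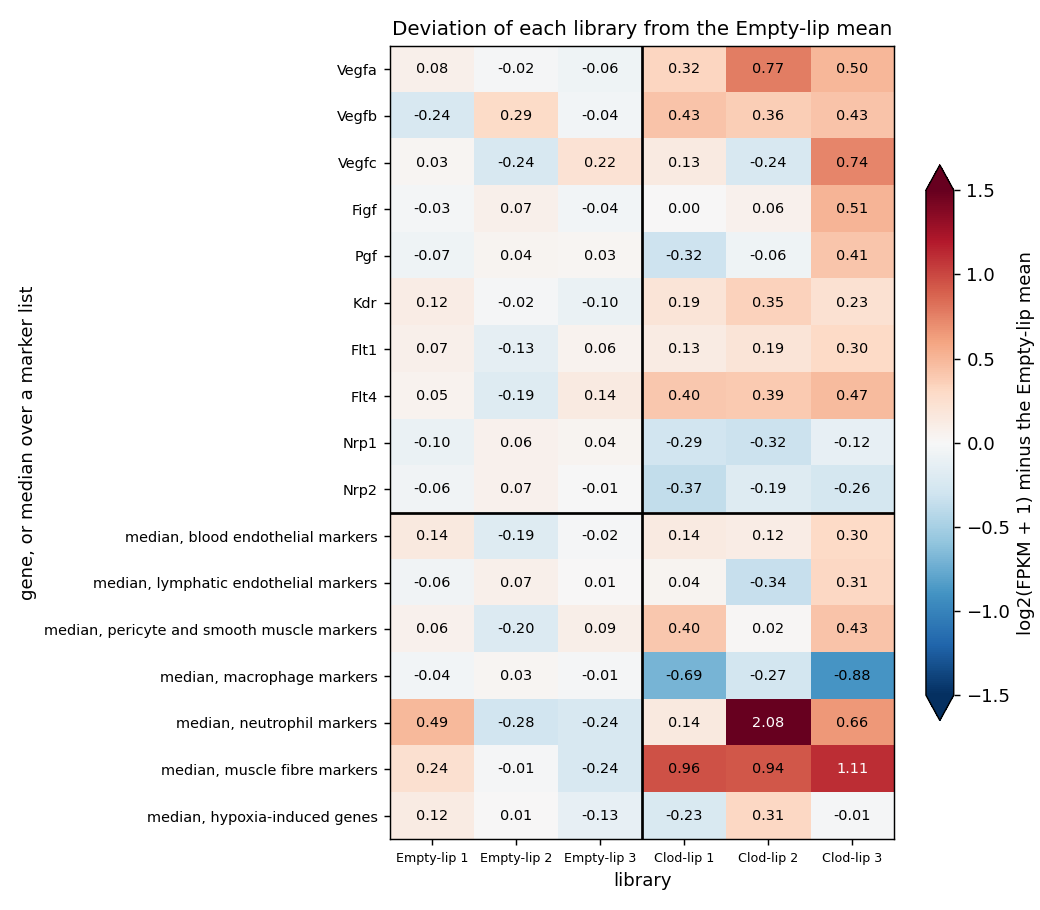
Each cell is log2(FPKM + 1) of a gene in a library minus the mean of the 3 Empty-lip libraries, for the 10 members (upper rows), or the median of that value over a marker or hypoxia list (lower rows); red is higher and blue lower. Clod-lip 3 stands out for Vegfc (0.74), Figf (0.51) and Pgf (0.41), Clod-lip 2 for Vegfa (0.77) and the neutrophil list (2.08), and both neuropilin rows are below 0 in all 3 Clod-lip libraries.

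Among the other ligands of the neuropilins, 1 gene rose. Sema3c, a secreted class 3 semaphorin that binds both neuropilins, was measured at 8.22, 8.72 and 9.19 FPKM in Empty-lip, and at 15.1, 16.6 and 17.1 in the Clod-lip libraries. The groups were far apart, with little spread in either. Its log2 change was 0.83 with SE 0.0961 (limma adjusted p = 0.0127), and leaving out Empty-lip 2 or Clod-lip 3 gave adjusted p of 0.0597 or 0.0768. Of the 13 genes of class 3 semaphorins, plexins and the neuropilin adaptor Gipc1, 1 rose, 0 fell and 12 did not pass. Of all tested genes 2.84% rose and 1.21% fell. The median log2 change of the 13 was 0.05. Sema3b, named after its values were seen, was at 3.52 ± 0.488 and 6.60 ± 1.56 FPKM (log2 0.73, limma adjusted p = 0.0603). Sema3f, a ligand of neuropilin 2, was at 11.3 ± 0.833 and 10.6 ± 0.848 FPKM, and Plxnd1, a plexin of endothelium, at 43.7 ± 4.25 and 43.5 ± 3.20 FPKM.

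Downstream of the receptors, none of 33 signalling genes passed in either direction, by limma, and 8 had an unadjusted p under 0.05, where 21.8% of all tested genes did. Their median log2 change was 0.02. Without overlap 3 were higher, where 14.0% of all tested genes were, and 8 lower, where 13.4% were. Cdc42, a small GTPase of cell migration, was at 399 ± 6.83 and 359 ± 21.2 FPKM, and Hspb1, a heat shock protein phosphorylated in the VEGFR2 pathway, at 248 ± 27.0 and 314 ± 60.6 FPKM.

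Genes known to respond to VEGF or to mark tip cells, the leading cells of a vessel sprout, were 22 in number; none passed by limma and 4 had an unadjusted p under 0.05, where 21.8% of all tested genes did. The median log2 change was 0.02. Cxcr4, a chemokine receptor of tip cells and leukocytes, was at 63.1 ± 2.91 and 56.8 ± 9.31 FPKM, and Plvap, a protein of endothelial openings, at 49.1 ± 5.77 and 46.1 ± 6.68 FPKM. The 5 genes of the list that were higher without overlap, where 14.0% of all tested genes were, included Nr4a1, an immediate early nuclear receptor gene named after its values were seen. It was measured at 19.99, 16.0 and 7.99 FPKM in Empty-lip, and at 27.6, 36.8 and 34.8 in the Clod-lip libraries, a log2 change of 1.20 (limma adjusted p = 0.0655).

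Of the 20 genes that process VEGF ligands or bind them outside the cell, none passed by limma and 6 had an unadjusted p under 0.05 (21.8% of all tested genes), with a median log2 change of -0.07. Sparc, a matrix protein that binds VEGF, was at 1534 ± 71.3 and 1655 ± 58.4 FPKM. Dcn, which encodes the matrix proteoglycan decorin, was at 361 ± 52.4 and 515 ± 26.5 FPKM (log2 0.52, limma adjusted p = 0.0529). Ccbe1, a cofactor in VEGF-C maturation named after its values were seen, was at 7.87 ± 0.333 and 5.89 ± 1.21 FPKM (log2 -0.38, limma adjusted p = 0.180), while the level of Vegfc itself overlapped between the groups.

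Vegfa is a known target of the hypoxia-inducible factors, so genes of oxygen sensing and other hypoxia-induced genes were read beside it. None of 9 oxygen sensing genes passed by limma, 3 had an unadjusted p under 0.05 (21.8% of all tested genes), and the median log2 change was 0.10. Hif1a, the oxygen-regulated subunit HIF-1α, was measured at 76.9, 71.0 and 73.1 FPKM in Empty-lip, and at 45.4, 73.0 and 55.0 in the Clod-lip libraries, so that Clod-lip 2 lay within the Empty-lip range and the others below it (log2 -0.37, limma adjusted p = 0.222). Epas1, which encodes HIF-2α and was named after its values were seen, was at 19.8 ± 2.96 and 26.7 ± 1.94 FPKM (log2 0.42, limma adjusted p = 0.0984). Hif1an, named in the same way, was at 12.9 ± 0.438 and 17.4 ± 1.16 FPKM (log2 0.40, limma adjusted p = 0.0530). With the filter at 5 FPKM 1 gene of the list passed as higher. Without Clod-lip 2, alone or together with Empty-lip 1, 1 passed as higher and 1 as lower. Egln3, an oxygen-sensing prolyl hydroxylase, was at 42.5 ± 7.51 and 47.2 ± 16.1 FPKM.

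Of 23 hypoxia-induced genes, 1 rose, where 2.84% of all tested genes did, and 22 did not pass. The median log2 change was 0.04. The gene that rose was Aldoa, the glycolytic enzyme aldolase A, which is very abundant in muscle, at 2031 ± 249 FPKM in Empty-lip. In Clod-lip it stood at 3152 ± 53.1 FPKM, a log2 change of 0.64 with a limma adjusted p of 0.0304. It lost its call without Empty-lip 2, Empty-lip 3, Clod-lip 1 or Clod-lip 3, with adjusted p from 0.0900 to 0.115, with no filter (0.0638) and with quantile normalization (0.0566). It moved with the muscle fibre markers, whose median log2 change was 1.01; the part of muscle in it was not tested. Clod-lip 2, the library with the highest Vegfa, had a median deviation over the hypoxia list of 0.31 from the Empty-lip mean. That of Clod-lip 1 was -0.23 and that of Clod-lip 3 was -0.01.

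**Figure D4:**
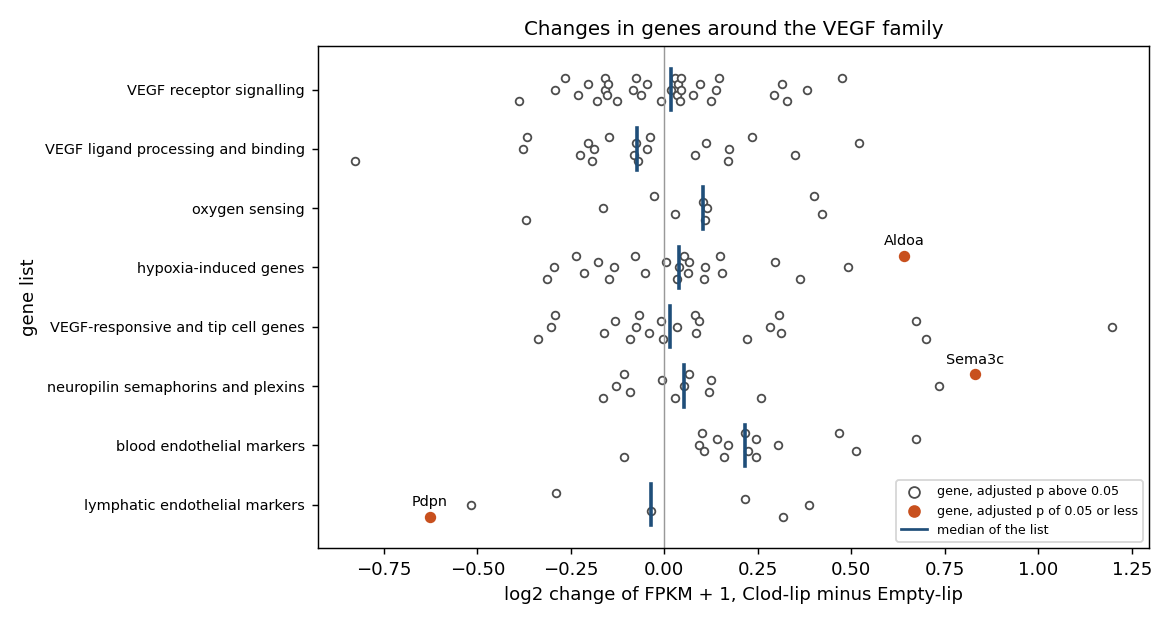
Log2 change of FPKM + 1, Clod-lip minus Empty-lip, of every tested gene in 8 lists around the VEGF family (circles), with filled circles for limma adjusted p of 0.05 or less and a bar at each list's median. Only Aldoa, Sema3c and Pdpn are filled, list medians run from -0.07 to 0.22, and the highest median is that of the blood endothelial markers.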

How the data were processed

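Total RNA was sequenced from 3 Empty-lip and 3 Clod-lip samples, grouped by title. Per the submitters' processing notes, TopHat and mm10 were used, with no version; any further tool is not given in the sources used here. FPKM per sample were deposited by the authors, as was their own comparison with p-values and q-values, which are printed as theirs. FPKM values are not counts, so no count test was run, absolute depth is unknown, and no counting interval is given. Low FPKM values, up to 0.5, gave the relative depth from whole-number ratios within 0.5%.

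The groups were compared by limma 3.58.1 (R 4.3.3) on log2 of FPKM plus a pseudocount of 1, the prior variance following a trend, over 13408 genes averaging 0.5 FPKM or more, with p adjusted by Benjamini-Hochberg over all of them, at a threshold of 0.05. This scale understates the change of low genes. The fit was tested on simulated data. Ratios of members were compared by exact two-sided permutation tests.

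The members and gene lists were chosen with earlier results of these data known. Of 223 list entries, 220 matched a symbol. The rule for named genes took all 10 members and the 3 genes most like Vegfa and Kdr. From each list it took up to 4 passing genes of lowest p, or the 2 of highest mean where none passed. Those it took from the macrophage, muscle fibre and blood endothelial lists are not named above. Cdh5 and Prox1 were taken for the ratios. All other genes outside the rule were named after their values were seen, whether or not marked so. Deposited starts count from 0, so 1 was added. Promoters and their motifs come from RefSeq, GRCm38.p6, matched by symbol for all 10 members. Other settings tried were a replicate block, leaving out each library, pseudocounts of 0.1 and 0.5, dropping the filter or raising it to 5 FPKM, quantile normalization, scaling to the total without small RNA genes, no trend, and Empty-lip 1 and Clod-lip 2 left out together. Labels give no batch.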

Additional observations from a re-analysis of the deposited data

How the results depend on the processing

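The labels do not say whether the replicate numbers pair the samples. Deviations of same-numbered libraries correlated at -0.08, -0.04 and 0.08, and those of differently numbered libraries at -0.11 to 0.14. With 3 libraries a group these values cannot show whether the samples were paired. With the number as a block, 170 genes passed in place of 543 and 0 members passed; Aldoa (adjusted p = 0.0735), Abcc9 (0.0686) and Thy1 (0.0817) did not pass, and 10 muscle, 3 macrophage and 3 neutrophil markers did. Leaving out 1 library gave 17 to 1436 genes, the lowest without Clod-lip 3 and the highest without Clod-lip 2, and 0 to 1 members, the 1 being Vegfa without Clod-lip 2. No filter gave 312 genes, no trend 284, and leaving out Empty-lip 1 with Clod-lip 2 gave 1226. With the filter at 5 FPKM, quantile normalization or scaling to the total without small RNA genes, 1 member passed, Vegfa; under the last 2 of these settings 1 member in place of 2 was lower without overlap, since Nrp1 overlapped. Apart from Pgf and Vegfc, every member kept its direction in each setting that tested it. With 1 library left out, the log2 change ran from -0.19 to 0.18 for Pgf, from -0.055 to 0.43 for Vegfc and from -0.14 to 0.34 for Egln3, which was at -0.0045 without Empty-lip 1 and Clod-lip 2. The log2 differences in ratio ran from -0.043 to 0.11 for Kdr to Flt1, -0.017 to 0.12 for Nrp1 to Nrp2, -0.024 to 0.30 for Vegfa to Vegfb and -0.40 to 0.45 for Flt4 to Prox1, which was at -0.32 without Empty-lip 1 and Clod-lip 2. The causes were not tested, and 3 libraries a group limit the precision.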

Other observations

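Other vessel-related cell lists were read beside the VEGF family. Of 13 pericyte and smooth muscle markers 1 rose, where 2.84% of all tested genes did, and 12 did not pass. Their median log2 change was 0.41, with summed FPKM of 328 to 399 in Empty-lip and 386 to 505 in Clod-lip. Without overlap 3 of the 13 were higher, where 14.0% of all tested genes were, and 10 overlapped. Abcc9, a potassium channel subunit listed here with the pericyte markers, rose from 8.66 ± 1.02 to 15.1 ± 2.32 FPKM. Its log2 change was 0.73 (limma adjusted p = 0.0331). Its adjusted p was above 0.05 without Empty-lip 2, Empty-lip 3, Clod-lip 1 or Clod-lip 3, at 0.0829 to 0.119. It was 0.0520 with no filter and 0.0510 with no trend. Muscle fibre markers rose as well, with a median log2 change of 1.01, and the part of muscle in Abcc9 was not tested. Of 11 fibroblast markers 1 fell, where 1.21% of all tested genes did, and 10 did not pass, with a median of 0.08. Without overlap 4 were higher, where 14.0% of all tested genes were, and 2 lower, where 13.4% were. With the filter at 5 FPKM, quantile normalization or scaling to the total without small RNA genes, 1 fibroblast marker passed as higher. Thy1, a surface protein of stromal cells, fell from 83.6 ± 2.95 to 64.6 ± 1.29 FPKM, a log2 change of -0.37 (limma adjusted p = 0.0344), and its adjusted p was 0.0649 to 0.134 without any one library other than Clod-lip 2 and 0.0738 with no trend.

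The genes whose levels over the 6 libraries were most like those of Vegfa, by Pearson r of log2(FPKM + 1) among 9421 genes, were Pstpip2 at 0.987, Nek9 at 0.983 and Map2k7 at 0.981, and 146 genes had an r over 0.9. Those most like Kdr were Phf1 at 0.994, Limk2 at 0.991 and Ralgapb at 0.990, and 218 genes had an r over 0.9. The libraries share the treatment, so any gene that differs between the groups is drawn together with these. Pstpip2, an adaptor protein of the myeloid cytoskeleton, was measured at 19.5, 19.7 and 18.7 FPKM in Empty-lip, and at 22.1, 26.9 and 24.9 in the Clod-lip libraries, and it did not pass (limma adjusted p = 0.0976).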
